A study of Mus musculus with 16 samples.

Results

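The genes described here encode the proteins of the mitochondrial ribosome, as they were measured in the inguinal white adipose depot, which lies under the skin of the groin, by poly-A RNA sequencing. Members were chosen by name: a symbol in the authors' deposited tables that starts with Mrpl or Mrps followed by a number. The pattern matched 78 symbols, 1 pseudogene was left out, and the 77 genes that remained were all measured above the limit of 10 counts in 4 libraries, out of 55487 genes in the count table. Of these, 48 are named Mrpl and 29 Mrps. By the subunit their protein belongs to, 50 are of the large subunit, 26 of the small subunit, and 1, Mrps36, is now known as a part of the 2-oxoglutarate dehydrogenase complex of the citric acid cycle. The mice were males of 6 to 7 months that either lacked Kmo in the whole body (KO) or were wild-type (WT) littermates. The gene's product, kynurenine 3-monooxygenase, takes part in the breakdown of tryptophan. Both genotypes were split between chow and a diet rich in fat (HFD), which gave 4 groups of 4 animals, named below by genotype and diet (such as WT chow), with 16 libraries from as many mice. The deletion is in every tissue, so an effect of adipose cells alone cannot be told apart from one of other organs.

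The mitochondrial ribosome translates the few messenger RNAs that the mitochondrial genome encodes, all of them for subunits of the respiratory chain and ATP synthase. Its ribosomal RNAs are transcribed inside the mitochondrion, whereas every one of its proteins is encoded in the nucleus, made in the cytosol and imported. In adipose tissue, mitochondrial content is high in thermogenic (brown and beige) adipocytes and lower in white ones.

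The promoters of 5 members are shown, picked among the genes called between the diets so as to differ in the motifs they hold. Mrps6, Mrps12 and Mrpl27 rose on HFD, and Mrps15 and Mrpl30 fell. The calls of Mrpl27 and Mrpl30 ended in 9 and 4 of the fits below that leave out 1 library. Each is the RefSeq window from 250 bases before to 50 bases after the gene's start in GRCm38.p6, written 5′ to 3′ on the gene's strand. Capitals mark exact matches, on either strand, to 4 motifs: GCGC, any base and then TGCGC (NRF1), CCGGAAG (ETS), AANATGGCG (YY1) and GGGCGG (SP1). Neighbouring SP1 matches can overlap and then appear as 1 run.
Mrps6, chr16:92058086-92058385, plus strand: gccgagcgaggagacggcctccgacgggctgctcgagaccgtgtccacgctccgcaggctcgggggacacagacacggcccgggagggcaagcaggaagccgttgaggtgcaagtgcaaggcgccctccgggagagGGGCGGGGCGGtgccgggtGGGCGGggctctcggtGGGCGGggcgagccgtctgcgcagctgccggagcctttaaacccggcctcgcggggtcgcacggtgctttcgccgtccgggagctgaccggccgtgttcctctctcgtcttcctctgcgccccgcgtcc
Mrps12, chr7:28741772-28742071, minus strand: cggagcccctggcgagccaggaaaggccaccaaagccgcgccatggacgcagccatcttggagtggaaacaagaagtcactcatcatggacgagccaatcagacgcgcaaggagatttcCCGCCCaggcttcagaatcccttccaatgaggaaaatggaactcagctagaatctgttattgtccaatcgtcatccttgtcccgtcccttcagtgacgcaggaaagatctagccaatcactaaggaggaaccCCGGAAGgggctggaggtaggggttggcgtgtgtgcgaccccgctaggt
Mrpl27, chr11:94653541-94653840, plus strand: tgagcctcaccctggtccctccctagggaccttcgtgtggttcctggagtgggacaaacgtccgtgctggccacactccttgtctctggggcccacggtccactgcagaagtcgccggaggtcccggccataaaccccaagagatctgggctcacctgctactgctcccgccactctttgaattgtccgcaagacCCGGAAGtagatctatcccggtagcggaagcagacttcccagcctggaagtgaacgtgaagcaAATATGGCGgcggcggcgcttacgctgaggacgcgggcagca
Mrps15, chr4:126046678-126046977, plus strand: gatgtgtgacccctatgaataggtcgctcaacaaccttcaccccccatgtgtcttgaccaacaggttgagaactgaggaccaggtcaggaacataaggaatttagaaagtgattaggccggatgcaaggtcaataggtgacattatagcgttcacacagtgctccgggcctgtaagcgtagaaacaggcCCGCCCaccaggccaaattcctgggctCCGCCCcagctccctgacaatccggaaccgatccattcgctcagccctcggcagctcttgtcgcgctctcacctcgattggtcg
Mrpl30, chr1:37890227-37890526, plus strand: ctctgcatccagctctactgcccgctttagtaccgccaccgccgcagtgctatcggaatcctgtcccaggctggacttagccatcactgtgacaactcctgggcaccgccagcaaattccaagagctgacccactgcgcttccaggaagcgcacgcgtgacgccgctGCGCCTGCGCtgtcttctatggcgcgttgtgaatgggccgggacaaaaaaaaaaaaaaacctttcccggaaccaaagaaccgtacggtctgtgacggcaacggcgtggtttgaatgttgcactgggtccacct
The windows of Mrps6 and Mrps15 hold SP1 matches and none of NRF1, ETS or YY1. The window of Mrps12 holds 1 ETS match at its start site and 1 SP1 match. That of Mrpl27 holds 1 ETS and 1 YY1 match, and that of Mrpl30 holds 1 NRF1 match. Over the 68 members with a window, 24 (35.3%) held an ETS match, against 16.8% of the 11746 tested genes with a window. A YY1 match was in 11 (16.2%) against 4.79%, an NRF1 match in 13 (19.1%) against 9.49%, and an SP1 match in 34 (50%) against 61.1%. For CCAAT the shares were 38.2% and 38.3%, and for TATAAA 5.88% and 7.88%. Of the 11 members called between the diets that have a window, 4 held an ETS match, 3 YY1, 1 NRF1 and 6 SP1. Whether motifs go with the direction of a diet difference was not tested. A match is a string of letters and was not tested as a binding site. The RefSeq table gave no window for 9 members, Mrpl19, Mrps28, Mrps34 and Mrps35 among those named below.

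Libraries held 13824404 to 16909361 counted read pairs. Kmo, the deleted gene, had 40 to 298 counts in WT libraries and 1 to 8 in KO libraries. Markers of adipocytes (Adipoq, Plin1 and 8 others) were detected in every library, at a summed 19474 to 35658 CPM (counts scaled to library size). The libraries also differed within each group in the markers of 2 other tissues. Summed CPM of 12 skeletal muscle markers ran from 75.4 to 5240 on chow and 85.5 to 2292 on HFD for WT mice, and 18.3 to 894 on chow and 46.4 to 474 on HFD for KO mice, with Mb at 0 counts in at least 1 KO chow library. As the mean log2 CPM of their genes, 14 T and B cell markers ran from 0.65 to 6.19 on chow and 0.18 to 5.16 on HFD for WT mice, and 0.96 to 6.00 on chow and 0.54 to 5.51 on HFD for KO mice, with none at 0 counts. In bulk tissue, fewer cells of a type and less RNA per cell cannot be told apart.

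Transcripts of the mitochondrial ribosome were moderately abundant. Compared per length as RPKM (counts per kilobase of exons, scaled to library size), the median member stood at 13.1 RPKM against 3.83 RPKM for all 16549 genes tested. The range ran from 2.83 RPKM for Mrpl19 to 64.0 RPKM for Mrpl12, a large-subunit protein that also binds the mitochondrial RNA polymerase. After Mrpl12 came Mrps21 at 56.0, Mrpl27 at 49.2, Mrpl34 at 48.2 and Mrps6 at 46.2 RPKM. At the low end, Mrps35 and Mrps30 stood at 3.61 RPKM each, Mrpl23 at 3.52 and Mrpl47 at 3.12 RPKM. Large-subunit genes had a median of 14.4 RPKM and small-subunit genes of 9.03 RPKM. Levels per length rest on the annotated exons, and 31 members share exon bases with another gene, 16 of them over 10% of their length. The counting command, per the file headers, set no option for read pairs that overlap more than 1 gene, which the counter by default leaves uncounted. Mrps34 shares 77.8% of its exon bases with Mapk8ip3 and Nme3, and Mrps25 shares 69.8% with Nr2c2, so their levels are the least certain.

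**Figure D1:**
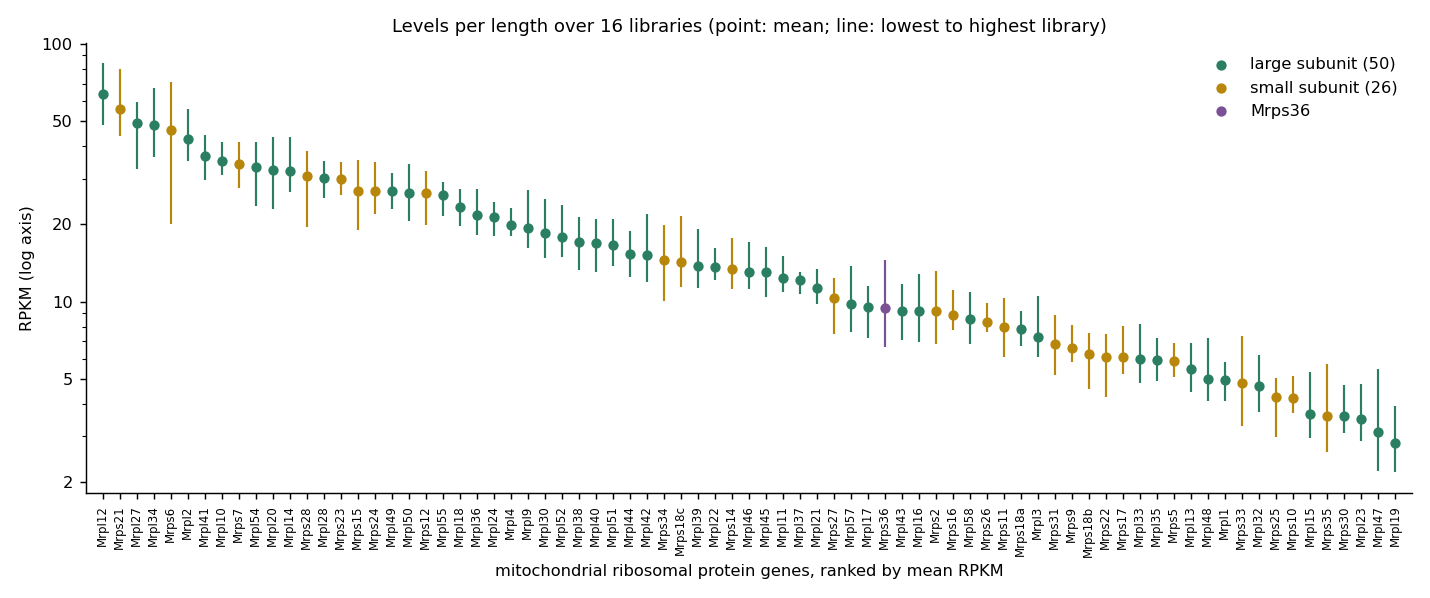
Mean RPKM of the 77 genes (points, log axis) with the lowest and highest of the 16 libraries (lines), ranked along the x axis and coloured by subunit. Mrpl12 stands highest at 64.0 and Mrpl19 lowest at 2.83 RPKM, genes of both subunits are spread along the ranking, and the longest lines belong to Mrps6 and Mrpl47.

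The members varied less from library to library than the median gene tested. The median coefficient of variation over the 16 libraries was 13.2%, against 23.8% for all genes tested. The median member was also more abundant (13.1 against 3.83 RPKM), and no comparison with genes of like abundance was made. Mrps6 varied most, with 36.7% and a 3.54-fold range of CPM. The mean log2 CPM of the 77 genes was 4.97 ± 0.15 on chow and 5.0 ± 0.12 on HFD for WT mice, and 5.04 ± 0.15 on chow and 4.96 ± 0.10 on HFD for KO mice (SD, n = 4 each). By library it was 4.96, 4.85, 5.19 and 4.90 on chow and 4.96, 4.88, 4.99 and 5.17 on HFD for WT mice, and 5.02, 5.25, 4.91 and 4.99 on chow and 4.82, 4.99, 5.02 and 5.03 on HFD for KO mice. The groups overlapped, and the spread within a group was wider than the distance between any 2 group means.

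In single libraries most members lay on the same side of their usual level. WT HFD library 4 had 74 of the 77 genes above their own median over all libraries, WT chow library 3 had 69, and KO chow library 2 had 66. At the other end, KO HFD library 1 had 7, WT chow library 2 had 9 and WT HFD library 2 had 12. Among muscle, thermogenic and lymphoid markers, the 3 high libraries were each extreme in a different list. WT chow 3 had the highest muscle marker mean (6.83), KO chow 2 the highest thermogenic marker mean (5.94) and WT HFD 4 the lowest lymphoid marker mean (0.18). All 3 had the highest adipocyte marker mean of their group (10.77, 10.68 and 10.88). That mean was the lowest of its group in KO HFD 1 (10.51) and WT HFD 2 (10.48). In WT chow 2 (10.44) it was not, as WT chow 4 had 10.18. Lymphoid means were also low in WT chow 3 (0.65) and KO chow 2 (2.19), but KO HFD 2 (0.54) had 38 members above their median. The mean of 53 nuclear respiratory chain and ATP synthase genes was the highest of its group in each high library (7.46, 7.71 and 7.22). It was the lowest of its group in KO HFD 1 (6.85), WT chow 2 (6.99) and WT HFD 2 (6.82). The 3 low libraries had lymphoid means of 5.51, 5.22 and 5.16, but WT chow 4 (6.19), KO chow 3 (6.00) and KO chow 1 (5.23) had as high a mean with 28, 33 and 48 members above their median. Of these 6 libraries, KO HFD 1, WT chow 2 and WT HFD 4 were sequenced on a single lane and the others were merged over lanes, per the file headers. What part these differences have in the level of a library was not tested.

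**Figure D2:**
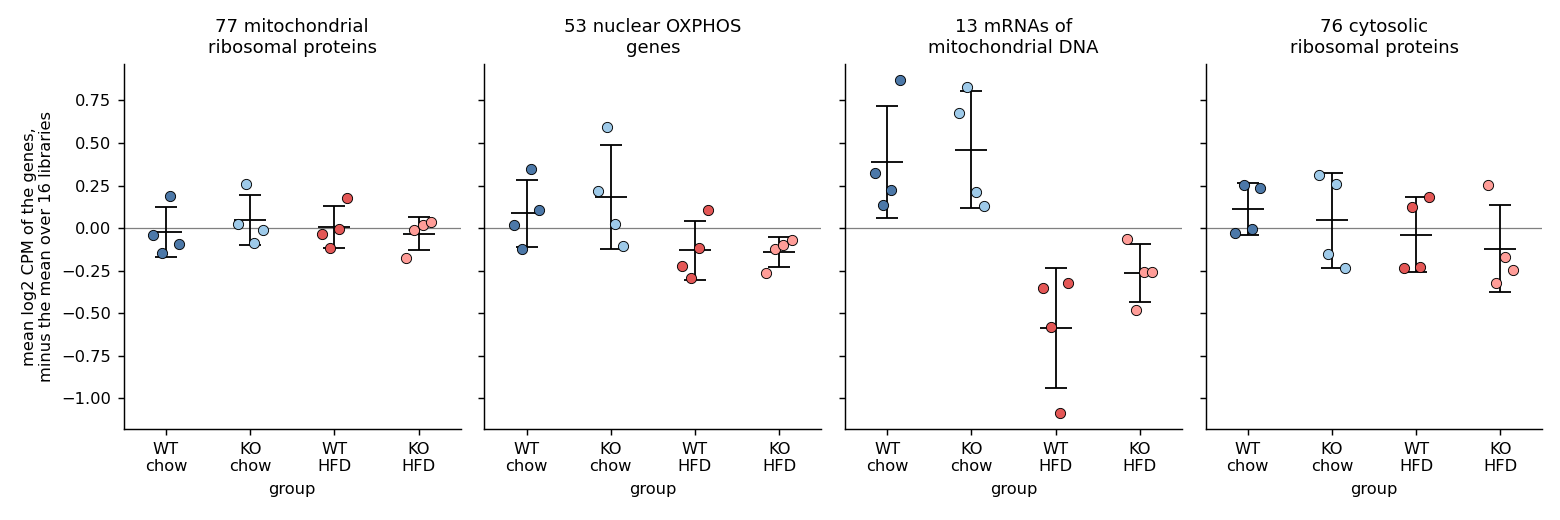
Mean log2 CPM of 4 groups of genes in each library, minus its mean over the 16 libraries (points are animals, bars the mean and SD of 4 animals). The 77 mitochondrial ribosomal protein genes span 0.43 on the log2 scale with overlapping diets, against 0.89 for 53 nuclear OXPHOS genes, 1.95 for the 13 mitochondrially encoded mRNAs, whose diets are separated, and 0.63 for 76 cytosolic ribosomal protein genes.

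No mitochondrial ribosomal protein gene passed the test between KO and WT. On chow, 0 of 77 were called between KO and WT at an adjusted p under 0.05 (edgeR's quasi-likelihood test, Benjamini-Hochberg over all genes tested), where 0.00604% of all genes were called. On HFD and over both diets the count was again 0 of 77, each against 0.00604%, which is 1 gene, Kmo. DESeq2 also called 0 members in each, with the same 0.00604% of all genes. Limma-voom called 0 members and 0% of all genes, Kmo included. At an unadjusted p under 0.05 there was 1 member on chow (1% of all genes), 0 on HFD (1.14%) and 0 over both diets (0.997%). In the authors' deposited tables of KO against WT, 0 of the 77 had an adjusted p under 0.05 on either diet. Over both diets, the 95% intervals of all 77 log2 fold changes lay between -0.50 and 0.37. On chow they lay between -0.70 and 0.67 and on HFD between -0.60 and 0.45, so larger differences than these lie outside every member's interval.

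The member with an unadjusted p under 0.05 was Mrps18b, 1 of 3 related genes that descend from the bacterial S18 protein. It read 10.4, 9.56, 12.4 and 11.9 CPM in WT chow and 13.6, 13, 15.8 and 13.4 CPM in KO chow. All KO animals on chow were above all WT animals, with a log2 fold change of 0.34 (SE 0.12, unadjusted p = 0.0135, adjusted p = 1.0, edgeR). This was the 1 member of 77 without overlap between the genotypes on chow, where 0.556% of all genes had none. On HFD its values were 14.2, 13.4, 11.7 and 14.9 CPM in WT and 13, 13, 15 and 13.4 CPM in KO, a log2 fold change of 0.00, and the groups overlapped. Of its exon bases, 30.5% are shared with the predicted gene Gm16279. The next by unadjusted p on chow were Mrpl9 (0.24), Mrpl44 (0.25), Mrpl1 (0.20) and Mrps25 (0.20 on the log2 scale). On HFD they were Mrpl23 (-0.28), Mrpl45 (0.19), Mrps24 (-0.19), Mrps31 (0.15) and Mrps12 (-0.16), and Mrpl23 and Mrps12 were without overlap, 2 of 77 where 1.42% of all genes were.

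The members leaned to opposite sides of 0 on the 2 diets without any of them passing the test. On chow, 58 of 77 had a log2 fold change above 0 (75.3%, against 48.6% of all genes) with a median of 0.06, and on HFD 21 of 77 did (27.3% against 50.6%) with a median of -0.04. Over both diets 45 of 77 did (58.4% against 50.7%) with a median of 0.01. Leaving out 1 library, the chow median ran from -0.01 without KO chow library 2 to 0.15 without WT chow library 3. The HFD median ran from -0.08 without WT HFD library 2 to 0.02 without WT HFD library 4. Leaving out 1 library was thus enough to change the sign of either median. On HFD the median was also above 0, at 0.01, with limma-voom and at 0.08 with merged libraries alone. The difference between the 2 genotype effects called 0 of 77 members and 0% of all genes by edgeR, DESeq2 and limma-voom, with 0 members at an unadjusted p under 0.05 and a median of -0.11. That comparison reuses the same 16 libraries, and its median was 0.04 with the merged libraries alone.

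**Figure D3:**
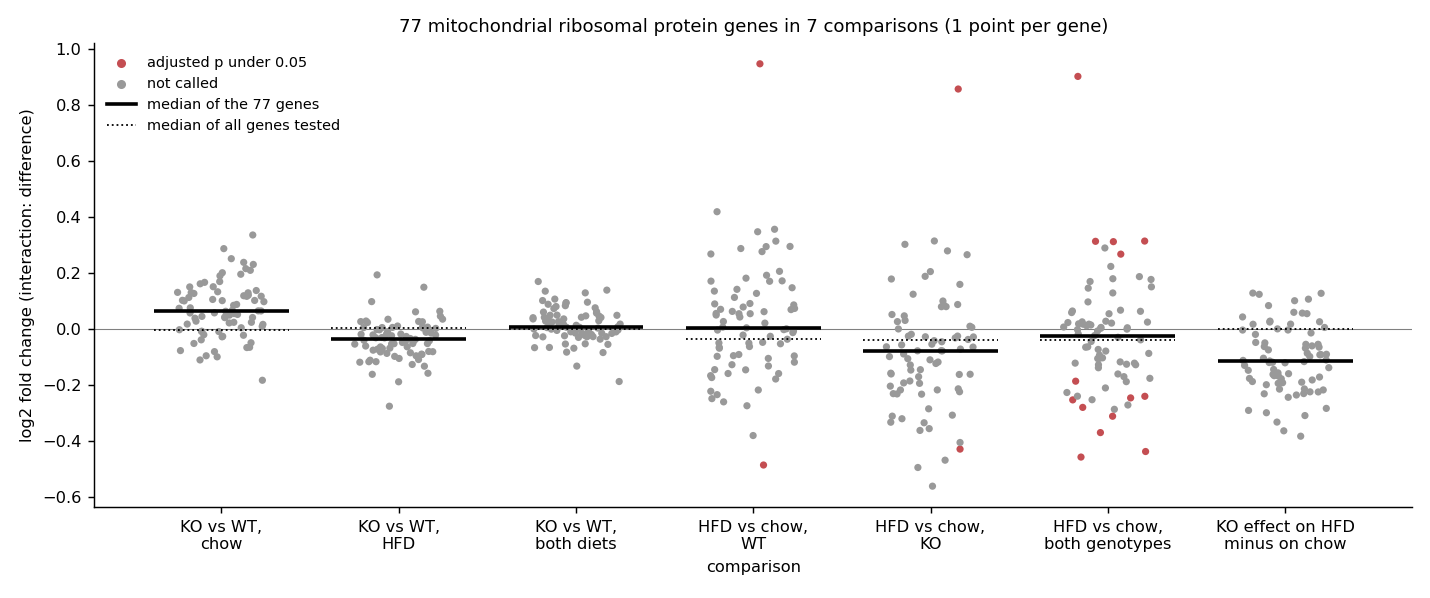
Log2 fold changes of the 77 genes (1 point per gene) in the 7 comparisons, with the median of the 77 (thick line) and of all genes tested (dotted). Called genes (red) appear only in the diet comparisons, 2 in WT, 2 in KO and 14 over both genotypes, and Mrps6 stands alone at 0.86 to 0.95.

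Some members passed the test between the diets, in both directions, and the middle of the family lay near 0. Over both genotypes 14 of 77 were called between HFD and chow (18.2%), where 33.1% of all genes were called. Of these, 5 rose (Mrps6, Mrps12, Mrps34, Mrps28 and Mrpl27) and 9 fell (Mrps15, Mrps36, Mrpl47, Mrps35, Mrpl30, Mrps16, Mrps31, Mrps24 and Mrps18a). Among all genes, 17.1% rose and 16% fell. With upper-quartile factors 3 members rose and 18 fell, where 2309 of the 5607 called genes were higher. Without WT chow library 3 the split was 10 higher and 5 lower, where 3036 of 5784 called genes were higher, against 2827 of 5471 with every library. At an unadjusted p under 0.05 there were 24 members (44% of all genes), and DESeq2 and limma-voom each called 19 (36.2% and 38.4% of all genes). By subunit, 9 of 26 small-subunit genes were called (4 higher, 5 lower) and 4 of 50 large-subunit genes (1 higher, 3 lower). Whether the subunits differ in that share was not tested. The median log2 fold change of the 77 was -0.02, against -0.04 for all genes, and 34 were above 0 (44.2%, against 46% of all genes). In no member were all 8 HFD libraries on 1 side of all 8 chow libraries, as was the case for 6.85% of all genes. Without KO chow library 2 the median was 0.02, and with upper-quartile factors it was -0.08 against -0.10 for all genes.

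Of the 14 calls, 6 held without any single library: Mrps6, Mrps12, Mrps34, Mrps15, Mrps36 and Mrps16, with adjusted p of at most 0.0492. The other 8 ended in 4 to 12 of the 16 fits that leave out 1 library. Mrpl30 was lost without KO chow 2, WT HFD 3, KO HFD 2 or KO HFD 4 (adjusted p at most 0.0603, edgeR). Mrpl47 and Mrpl27 were lost in 9 fits each (0.0730 without WT chow 4 and 0.0814 without KO HFD 3), and Mrps24 and Mrps18a in 10 (0.0779 without KO chow 2 and 0.0973 without KO HFD 2). Mrps28 and Mrps35 were lost in 11 (0.0799 without WT chow 4 and 0.0954 without KO chow 2), and Mrps31 in 12 (0.0820 without WT HFD 3). The number called was 6 without WT HFD 3, 7 without KO HFD 2, 8 without WT chow 1, KO chow 2 or WT HFD 1, and 9 without WT HFD 2. Without the filter on low counts all 8 calls ended, and with the merged libraries alone 5 of them did (Mrpl30, Mrpl47, Mrpl27, Mrps28 and Mrps18a, with adjusted p of at most 0.159).

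**Figure D4:**
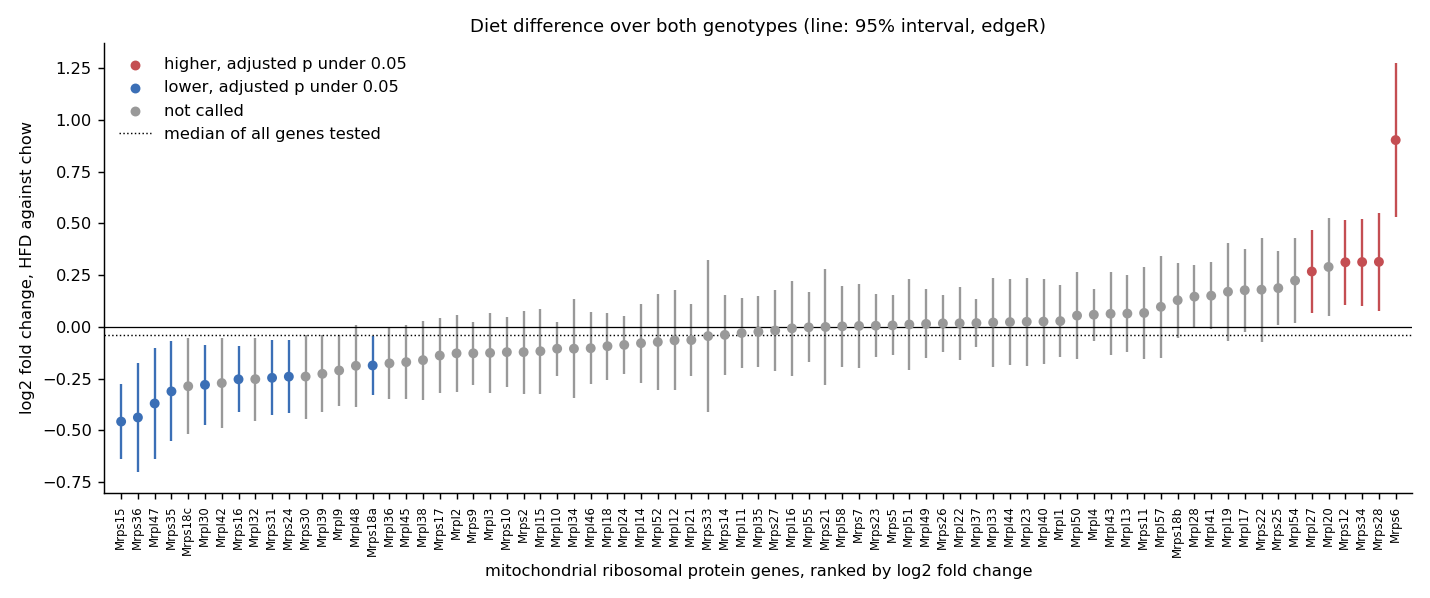
Log2 fold change of HFD against chow over both genotypes for each of the 77 genes, ranked, with its 95% interval; red and blue mark genes with an adjusted p under 0.05. Mrps6 lies apart at 0.90, the other called genes lie between -0.46 and 0.31, and most intervals cross 0.

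Mrps6, a protein of the small subunit (chr16:92058270-92112227, plus strand), showed the largest change. It read 52.8, 38, 74.2 and 30.8 CPM on chow and 109, 82.8, 96.4 and 89.5 on HFD for WT mice, and 42.3, 55.1, 34.9 and 66.5 on chow and 70.3, 92.1, 107 and 90.6 on HFD for KO mice. Within each genotype all HFD animals were above all chow animals, and over both genotypes 1 chow library (74.2) passed the lowest HFD library (70.3). The log2 fold change was 0.90 (SE 0.17, adjusted p = 0.00165, edgeR), a 1.87-fold rise. It was called in WT (0.95, adjusted p = 0.0251) and in KO (0.86, adjusted p = 0.0355). In WT the call ended without WT chow 1, 2 or 4 or WT HFD 1 or 3 (adjusted p at most 0.0717), and in KO without KO chow 1, 2 or 3 or KO HFD 2, 3 or 4 (at most 0.111). With the merged libraries alone the adjusted p was 0.173 in WT and 0.0519 in KO (edgeR), and without the filter on low counts 0.0611 and 0.0906. The 2 diet effects differed by -0.09 with an interval of -0.83 to 0.65.

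Mrps6 lies in 1 locus with Slc5a3, the sodium-dependent myo-inositol transporter, and 19.9% of its exon bases are shared with Slc5a3 and the predicted gene Gm49711. Slc5a3 read 111, 81.7, 112 and 43.7 CPM on chow and 228, 195, 238 and 209 on HFD for WT mice, and 67.8, 77.1, 47.6 and 111 on chow and 198, 206, 244 and 199 on HFD for KO mice. It rose more than Mrps6, with a log2 fold change of 1.40 (SE 0.19, adjusted p = 1.74e-04, edgeR), and the difference between the 2 genes was not tested. Every HFD library of Slc5a3 was above every chow library. The share of Mrps6 reads that stem from transcripts of Slc5a3 cannot be told from gene counts.

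Mrps15, another small-subunit protein (chr4:126046925-126055532, plus strand), showed the largest fall among the called members over both genotypes. It read 56.9, 46.3, 60.1 and 51.6 CPM on chow and 38.9, 35.9, 32.2 and 46.4 on HFD for WT mice, and 54.4, 57.0, 52.8 and 43.2 on chow and 34.9, 39.5, 38.9 and 40.7 on HFD for KO mice. In KO the diets did not overlap, and in WT the highest HFD library stood at the level of the lowest chow library. The log2 fold change was -0.46 (SE 0.09, adjusted p = 0.00124, edgeR), so the HFD level was 0.728 times the chow level. It was called in WT (-0.49, adjusted p = 0.0209) and in KO (-0.43, adjusted p = 0.0323). The WT call ended without WT chow 1 or WT HFD 2 or 3 (adjusted p at most 0.0748), and the KO call without KO chow 1, 2 or 3 or any 1 KO HFD library (at most 0.0903). It also ended in WT with the merged libraries alone (adjusted p = 0.0540, edgeR) and in KO without the filter on low counts (0.0649). Mrps15 shares no exon bases with another gene.

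Within a genotype, Mrps6 (higher) and Mrps15 (lower) were the 2 of 77 called in WT, where 11.8% of all genes were called (6.9% higher, 4.92% lower). The same 2 genes were called in KO, where 12.5% were (7.28% higher, 5.23% lower). HFD and chow libraries did not overlap for 2 members in WT (17.4% of all genes) and for 10 in KO (18.6%). Unadjusted p was under 0.05 for 9 members in WT (29.4% of all genes) and 15 in KO (29.9%). DESeq2 called 3 members in WT and 7 in KO (16.8% and 17.1% of all genes), and limma-voom 3 and 5 (15.3% and 20.8%). The medians of the 77 were 0.00 in WT, with 40 above 0 (46.9% of all genes), and -0.08 in KO, with 22 above 0 (46.1% of all genes). The WT median changed sign with relative log expression factors (-0.004) and was -0.05 with upper-quartile factors. Next by p in WT were Mrps12 (0.42, adjusted p = 0.0569), Mrpl27 (0.36, 0.0876) and Mrps34 (0.35, 0.112), and in KO Mrpl9 (-0.36, 0.0517), Mrpl47 (-0.56, 0.0519) and Mrps16 (-0.33, 0.0519). The diet comparisons in WT and KO share no libraries, while each shares libraries with the genotype comparison on chow and with that on HFD.

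Mrps36 is the member whose protein is not a ribosome subunit: it recruits the E3 subunit to the 2-oxoglutarate dehydrogenase complex. It was among the least counted of the members, at 12.3, 11, 14.4 and 14.8 CPM on chow and 8.52, 9.38, 10.1 and 12.3 on HFD for WT mice, and 15, 18.5, 14.4 and 9.88 on chow and 9.98, 9.81, 9.58 and 11.6 on HFD for KO mice. The HFD level was lower, with a log2 fold change of -0.44 (SE 0.12, adjusted p = 0.0149, edgeR). The diets overlapped: 3 of the 8 chow libraries (WT chow 1 and 2 and KO chow 4) were within the HFD range of 8.52 to 12.3 CPM. With the mean level of the thermogenic markers in the model the log2 fold change was -0.02 (adjusted p = 0.960, edgeR). That level did not overlap between the diets, so the 2 cannot be told apart, and no member was called in that fit.

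Mrps16, Mrps12 and Mrps34, all of the small subunit, were the other calls that held without any 1 library. Mrps16 (chr14:20389304-20393634, minus strand) read 25.1, 22.5, 31.7 and 27.1 CPM on chow and 22.8, 22.8, 22.6 and 26.2 on HFD for WT mice, and 32, 30.3, 27.9 and 26.2 on chow and 22.4, 22.6, 22.7 and 24.8 on HFD for KO mice. It fell by 0.25 on the log2 scale (SE 0.08, adjusted p = 0.0183, edgeR), and 6 of the 8 HFD libraries lay between 22.4 and 22.8 CPM. Without the filter on low counts its adjusted p was 0.0877 (edgeR). Mrps12 (chr7:28739641-28741820, minus strand), the protein of the decoding centre that carries streptomycin resistance mutations in bacteria, read 20.7, 23.1, 29.5 and 22.5 CPM on chow and 30.9, 31.4, 32.4 and 33.4 on HFD for WT mice, and 27.4, 22.1, 21 and 28.8 on chow and 22.4, 30.7, 30.8 and 30.6 on HFD for KO mice. It rose by 0.31 on the log2 scale (SE 0.10, adjusted p = 0.0222, edgeR), and 7 of the 8 HFD libraries were above every chow library. Mrps34 (chr17:24895116-24897502, plus strand) read 22.9, 24.8, 31.5 and 24.5 CPM on chow and 31.1, 28.6, 31.4 and 40.9 on HFD for WT mice, and 27.8, 31.0, 20.7 and 29.8 on chow and 31.9, 33.4, 32.2 and 35.2 on HFD for KO mice. It rose by 0.31 on the log2 scale (SE 0.10, adjusted p = 0.0243, edgeR), and with the merged libraries alone the call ended (adjusted p = 0.137). Its neighbour Mapk8ip3 went the other way, with a log2 fold change of -0.63 (SE 0.11, adjusted p = 9.66e-04, edgeR). Mapk8ip3 and Nme3 together share 77.8% of the exon bases of Mrps34. How these bases split between Mapk8ip3 and Nme3 was not worked out, and the change of Nme3 is not given.

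**Figure D5:**
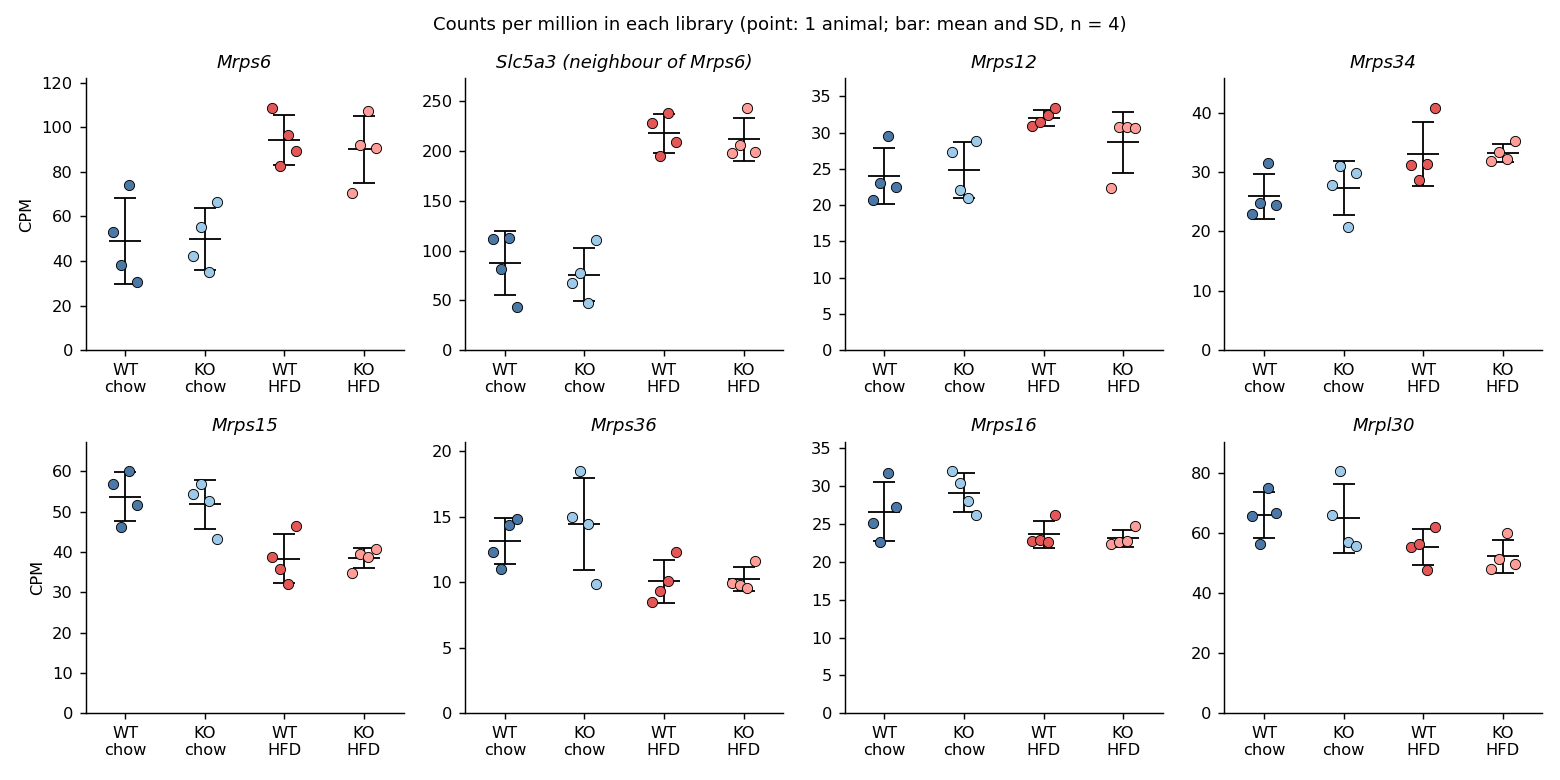
CPM of 7 members and of Slc5a3 in each library, by group (points are animals, bars the mean and SD of 4 animals; each y axis starts at 0). HFD libraries sit higher for Mrps6, Slc5a3, Mrps12 and Mrps34 and lower for Mrps15, Mrps36, Mrps16 and Mrpl30, while WT and KO overlap on each diet except for Mrps12 on HFD.

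The other 8 calls, Mrps18a included, were small, with log2 fold changes of -0.19 to -0.37 or of 0.27 to 0.31. Of the large subunit, Mrpl30 read 65.8 ± 7.64 and 64.8 ± 11.5 CPM in WT and KO on chow and 55.4 ± 5.93 and 52.2 ± 5.44 on HFD (SD, n = 4 each). Mrpl47 had means of 14 and 17.1 CPM on chow and 12.4 and 11.6 on HFD, and 24.2% of its exon bases are shared with Actl6a and Ndufb5, a complex I gene that fell (-0.39, adjusted p = 0.0402, edgeR). Mrpl27 went up from 42.4 ± 7.57 and 45.6 ± 5.0 to 54.3 ± 3.75 and 51.6 ± 6.84 CPM. Of the small subunit, Mrps28 went from 21.2 and 21.6 to 26.4 and 26.9 CPM, Mrps24 from 41.9 and 43.5 to 38.6 and 33.9, Mrps31 from 23.5 and 25.6 to 19.6 and 21.8, and Mrps35 from 32.5 and 36.6 to 28.0 and 27.6 CPM, each as the mean of WT and of KO. Each of these pairs of diets overlapped between libraries when the genotypes were pooled.

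A trio of genes carries the S18 name. Mrps18a, whose protein sits in the large subunit, read 29.8 ± 3.13 and 31.9 ± 2.46 CPM in WT and KO on chow and 26.7 ± 1.55 and 27.5 ± 2.04 on HFD (SD, n = 4 each), a called fall of 0.19 on the log2 scale (adjusted p = 0.0436, edgeR). Mrps18b was not called by diet, at 0.13 (adjusted p = 0.256), and Mrps18c was not either, at -0.29 (adjusted p = 0.0547). Mrps30, also of the large subunit in spite of its name, had -0.24 (adjusted p = 0.0644). Mrpl12 had -0.06 (interval -0.31 to 0.18), and Mrpl58, a peptidyl-tRNA hydrolase within the large subunit that frees stalled ribosomes, had 0.00 (interval -0.19 to 0.20).

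The ratio of the 2 subunits differed between the diets with Mrps6 counted and not without it, as a description with no test. The summed RPKM of the 26 small-subunit genes was 0.446 ± 0.026 times that of the 50 large-subunit genes on chow and 0.481 ± 0.011 on HFD for WT mice, and 0.448 ± 0.009 on chow and 0.475 ± 0.010 on HFD for KO mice (SD, n = 4 each). Chow libraries ran from 0.424 to 0.476 and HFD libraries from 0.467 to 0.496. With Mrps6 left out, the ratio was 0.411 ± 0.018 on chow and 0.413 ± 0.010 on HFD in WT, and 0.413 ± 0.006 and 0.410 ± 0.007 in KO. The HFD libraries, from 0.403 to 0.426, then lay within the range of the chow libraries, from 0.395 to 0.435.

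Other parts of mitochondrial gene expression were described by counts over both genotypes, where 33.1% of all genes were called by diet (17.1% higher, 16% lower). None of the 5 ribosome subunits with other names (Dap3, Ptcd3, Chchd1, Aurkaip1 and Gadd45gip1) was called by diet, with 1 at an unadjusted p under 0.05 (edgeR) and a median of -0.06. Of the 2 mitochondrial ribosomal RNAs, which poly-A selection captures only in part, mt-Rnr1 of the small subunit fell (-0.51, adjusted p = 0.0381) and mt-Rnr2 had -0.38 (adjusted p = 0.144). By genotype, mt-Rnr1 had -0.11 in WT (adjusted p = 0.803) and -0.90 in KO (adjusted p = 0.0303), and mt-Rnr2 had 0.02 and -0.79. The difference between the genotypes was -0.80 for mt-Rnr1 (unadjusted p = 0.0387, adjusted p = 1.0, edgeR) and did not pass the test. Of 24 ribosome assembly and rRNA modification factors 3 fell and 0 rose, Mettl15 (-0.73), Mettl17 (-0.52) and Eral1 (-0.19), the last being the GTPase that binds the small-subunit rRNA. Of 14 translation factors 4 fell and 0 rose: Guf1 (-0.38), the initiator-tRNA formylase Mtfmt (-0.32), the ribosome recycling factor Gfm2 (-0.21) and the initiation factor Mtif3 (-0.26). Of 20 aminoacyl-tRNA synthetase and amidotransferase genes 2 fell, Hars2 (-0.39) and Vars2 (-0.36), and Lars2 rose (0.42). Of 18 genes of mitochondrial DNA transcription, replication and RNA handling 4 fell, among them Polg2 (-0.53), Fastk (-0.23) and the transcription factor Tfam (-0.29), and the poly-A polymerase Mtpap rose (0.25). Between KO and WT, over both diets and on each, 0 genes of these lists were called (edgeR), with 1 gene at an unadjusted p under 0.05 over both diets (a translation factor), 1 on chow (a ribosomal RNA) and 0 on HFD.

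Most of what the mitochondrial ribosome translates was lower on HFD. Of the 13 mRNAs of the mitochondrial genome 11 fell on HFD and 0 rose, with a median of -0.86, led by mt-Nd4 (-1.31) and mt-Cytb (-1.22), and their mean log2 CPM was 8.60 ± 0.33 on chow and 7.63 ± 0.35 on HFD for WT mice, and 8.68 ± 0.34 on chow and 7.95 ± 0.17 on HFD for KO mice (SD, n = 4 each). Of 53 nuclear genes of the respiratory chain and ATP synthase 25 fell and 0 rose, with a median of -0.29, for example Ndufa6 (-0.60), Cox6c (-0.69), Ndufv2 (-0.52) and Ndufa10 (-0.50). Over 14 alternative settings, the number of these mRNAs called ran from 0, in 1 setting, to 11. For the nuclear genes it ran from 0 to 36. Of 9 regulators of mitochondrial biogenesis the coactivators Ppargc1b (-0.78) and Ppargc1a (-0.50) fell. Of 76 cytosolic ribosomal protein genes 3 fell and 0 rose, with a median of -0.16. Among all genes 16% fell and 17.1% rose. The medians of the lists beside -0.02 for the mitochondrial ribosomal proteins and -0.04 for all genes are descriptions, and the difference between lists was not tested.

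Markers of thermogenic adipocytes moved with the diet as well, where 16% of all genes fell. Of 10 markers 5 fell and 0 rose, Ucp1 by 6.13 and Cidea by 2.67 on the log2 scale, and their summed CPM was 439 to 1048 on chow and 280 to 419 on HFD for WT mice, and 443 to 1352 on chow and 277 to 363 on HFD for KO mice, with none at 0 counts. Their mean log2 CPM ran from 3.95 to 5.94 on chow and from 2.57 to 3.71 on HFD without overlap, so diet and this marker level cannot be told apart. With it in the model, edgeR called 0 of 77 members over both genotypes, 0 of the 53 respiratory chain genes and 1.22% of all genes, and the median of the 77 was 0.08. The log2 fold changes were then 0.62 for Mrps6, -0.34 for Mrps15, 0.29 for Mrps34, 0.25 for Mrps12, -0.16 for Mrps16 and -0.02 for Mrps36. With the lymphoid marker level in the model instead, 20 of 77 were called, 2 higher and 18 lower, beside 31.5% of all genes, and with the muscle marker level 15, of which 5 were higher and 10 lower, beside 32.9%. The lymphoid level ended the calls of Mrps12 (0.23, adjusted p = 0.0538, edgeR), Mrpl27 (0.16, adjusted p = 0.0873) and Mrps28 (0.23, adjusted p = 0.0833). The muscle level ended that of Mrps18a (adjusted p = 0.0504), and both levels together ended that of Mrps34 (adjusted p = 0.0544). The lymphoid level put the median of the 77 at -0.11. With the lymphoid and with the muscle level, Mrps6 had 0.73 and 0.92, and Mrps15 had -0.51 and -0.46.

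Some markers of other cell types were called between the diets too. Over both genotypes, 33.1% of all genes were called (17.1% higher, 16% lower). Of 9 endothelial markers 4 rose and 0 fell, with a median of 0.35 and a summed CPM of 509 to 860 on chow and 630 to 1218 on HFD. Of 11 macrophage markers 2 rose and 0 fell, with a median of 0.27 and sums of 844 to 2197 and 1019 to 1876 CPM. Of 8 fibroblast markers 2 rose and 0 fell, with a median of 0.24 and sums of 2445 to 6262 and 3904 to 7890 CPM. Of 10 adipocyte markers 2 rose and 2 fell, with sums of 19474 to 31123 and 28060 to 35658 CPM. Of 14 lymphoid markers 1 rose and 0 fell, with a median of -1.09 and sums of 361 to 1696 and 867 to 2045 CPM. The 1 that rose (1.13) was the only lymphoid marker with a log2 fold change above 0. None of the endothelial, macrophage, fibroblast, adipocyte or lymphoid markers was at 0 counts in any library, and the part of the endothelial, macrophage, fibroblast and adipocyte markers in the members' diet differences was not tested.

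Some members lie head to head with another gene. A tested gene on the opposite strand started within 1000 bases upstream for 19 of 77 members (24.7%), against 10.3% of all genes tested. Mrps12 starts 172 bases from Sars2, the mitochondrial seryl-tRNA synthetase, and rose by 0.31 on the log2 scale where Sars2 had 0.13 (adjusted p = 0.421, edgeR). Mrps34 starts 29 bases from Eme2, which fell (-0.37, adjusted p = 0.0423, edgeR) while Mrps34 rose. Mrpl30 starts 66 bases from Mitd1, which had -0.22 (adjusted p = 0.107, edgeR) beside -0.28 for Mrpl30. The members of such pairs thus did not all share a direction, and the pairs were not tested for it.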

How the data were processed

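The submitters' processing notes name STAR 2.7.3a and the build GRCm38.p6. Read pairs were assigned to genes of Ensembl release 102 by the authors, who ran featureCounts 2.0.3 without the strand option, per the file headers. The deposited counts are not normalised. The kit was stranded, per the labels' protocols. The authors also deposited shrunken log2 fold changes and p-values of KO against WT for each diet, per the file headers, which were used for symbols and for the sentence that names them.

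Of 55487 genes, filterByExpr kept 16549. Models were fitted with R 4.3.3 and edgeR 4.0.16: TMM factors, glmQLFit (robust) over all 16 libraries with 4 group means, and glmQLFTest for 7 comparisons. Adjusted p is Benjamini and Hochberg's, computed over all genes tested, and calls had a value under 0.05. Log2 CPM used a prior count of 2, and RPKM the deposited exon length. The script was tested on simulated data. Alternatives used DESeq2 1.42.0, limma 3.58.1, other factors, filters, covariates, a replicate block and leaving out libraries. No 2 libraries agreed within sampling noise. Members with values were named by rule: up to 12 called per comparison, otherwise the 5 with the smallest p, plus the 5 highest and lowest in RPKM and members with special roles. Other lists gave up to 4 called genes by adjusted p. The members and lists were chosen with earlier results of these data known. Library totals limit precision: a gene at 10 CPM has about the counts of Mrps36, which had 134 to 273 per library.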

Additional observations from a re-analysis of the deposited data

Results flagged for a closer look

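Single libraries stood apart from the other 3 of their group for 7 of the named members, judged by the gap to the nearest library over the range of the group (Dixon's ratio at its 95% critical value). This was met in 8 of 120 groups of 4 libraries, and chance meets it in about 1 in 20 groups. In KO chow, Mrps18c was high in library 2 at 23.1 CPM (others 16.3 to 17), Mrpl58 was high in the same library at 35.3 CPM (others 26.7 to 27.9), and Mrps28 was low in library 3 at 15.2 CPM (others 23.5 to 24.1). In WT HFD, library 4 was high for Mrps16 at 26.2 CPM (others 22.6 to 22.8) and for Mrps18a at 29.0 CPM (others 25.7 to 26.1). In KO HFD, Mrps16 was high in library 4 at 24.8 CPM (others 22.4 to 22.7), Mrpl44 was high in library 3 at 30.9 CPM (others 22.9 to 24.1), and Mrps12 was low in library 1 at 22.4 CPM (others 30.6 to 30.8). KO chow 2 and WT HFD 4 were also among the 3 libraries with most members above their own median, and KO HFD 1 was the library with fewest.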

How the results depend on the processing

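The counts in the 3 genotype comparisons and the interaction were 0 of 77 in every alternative run. For HFD against chow in WT the count of 2 became 1 with no filter, 0 with the thermogenic score, with merged libraries alone and with only the groups compared, 4 at a threshold of 0.10, 1 at an absolute log2 fold change of 0.5, and 0 to 7 leaving out 1 library. The highest was without WT chow 3. In KO the count of 2 became 4 with relative log expression factors, 7 with upper-quartile factors, 7 with DESeq2, 5 with limma-voom, 0 with no filter, 6 with the CPM filter, 5 with the muscle score, 11 with the lymphoid score, 0 with the thermogenic score, 1 with merged libraries alone, 8 at a threshold of 0.10, 1 at a log2 fold change of 0.5, and 0 to 7 leaving out 1 library, the highest without KO chow 4. With both muscle and lymphoid scores, chosen after seeing the data, it was 11. Over both genotypes the count of 14 became 5 with no filter, 0 with the thermogenic score, 9 with merged libraries alone, 22 at a threshold of 0.10, 1 at a log2 fold change of 0.5, and 6 to 19 leaving out 1 library. Upper-quartile factors gave 3 higher and 18 lower members over both genotypes, 12 of them shared with the 14, and 2309 of 5607 called genes higher where TMM gave 2827 of 5471. Mrpl47 changed sign with the thermogenic score, to 0.020 in KO and 0.11 over both genotypes. The causes were not tested, except that the threshold and fold settings act by construction.

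Replicate numbers recur in each group. Deviations of same-numbered libraries had r from -0.69 to 0.55 (mean -0.08, 24 pairs), and those of different number from -0.61 to 0.76 (mean 0.03, 72 pairs). These values cannot show whether the numbers mark a pairing, and the main model held no term for it. With the replicate block, 0 members were called in WT, 0 in KO and 8 over both genotypes, all 8 among the 14. Mrps15 and Mrps6 then had adjusted p of 0.0534 and 0.0540 in WT and 0.0734 and 0.0795 in KO (edgeR).

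The lowest count of a member in a library was 88, for Mrps33 in KO chow 4. Its interval for KO against WT on chow ran from -0.70 to 0.34. The part of depth in the width of the intervals was not tested. The median half-width of a member's 95% interval was 0.28 on the log2 scale within a diet or genotype and 0.20 over both.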
